A study of Mus musculus with 39 samples.

Results

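The genes described here are the Zfp genes that MIN6 β cells expressed, the zinc finger protein genes that mouse nomenclature names with Zfp and a number. A gene was taken as a member when its mean over the 15 untreated and vehicle-treated libraries was at least 10 CPM, a CPM being a gene's count scaled to a fixed total of gene counts per library. The rule found 215 members among 337 Zfp symbols and 24421 gene symbols in all, and all 215 had enough reads to be tested. MIN6 is a mouse insulinoma line that makes and secretes insulin. The cells received 5 μM SW016789, a small molecule that the study used to drive excess insulin secretion, or 100 nM thapsigargin, which blocks the calcium pump of the endoplasmic reticulum, or 0.1% DMSO as vehicle, each for 1, 2, 6 or 24 h, and Baseline cells were taken at 0 h. Each of these 13 groups had 3 libraries of total RNA, 1 from each of 3 numbered experiments that held a sample of every group. All came from a single cell line, so the p-values describe spread among repeat experiments, not among animals. The labels give no genetic change for any group, and a bulk library cannot tell fewer cells from less RNA per cell.

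Most Zfp genes encode proteins with an array of C2H2 zinc fingers, small folds held by a zinc ion that read DNA bases or, in some proteins, RNA. Many also carry a KRAB domain, which recruits the corepressor Trim28 and through it enzymes that place the silencing mark H3K9me3. The prefix is a matter of naming, and it also covers proteins without such arrays, among them mRNA decay factors, ubiquitin ligases and a LIM domain protein of the actin cytoskeleton. In β cells most of these genes have no described function, whereas calcium store depletion by thapsigargin is a standard way to set off the unfolded protein response.

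Because the members were chosen by their level in untreated and vehicle-treated cells, that level is a description and was not tested. Zfp637 (10.2 CPM), Zfp229 (10.4 CPM) and Zfp677 (10.5 CPM) lay just inside the limit, and Zfp449 (9.90 CPM), Zfp472 (9.68 CPM) and Zfp688 (9.39 CPM) just outside it. Mean levels over the 15 control libraries had a median of 28 CPM and reached 340.7 CPM in Zfp871, 325.8 CPM in Zfp516 and 304.5 CPM in Zfp106. Levels can be set against each other between genes only per length, and there the members ran from 1.61 to 62.6 CPM per kilobase with a median of 8.07. The 6 highest were Zfp367 at 62.6, Zfp207 at 54.0, Zfp91 at 44.9, Zfp664 at 41.7, Zfp516 at 41.7 and Zfp706 at 35 CPM per kilobase. Zfp207 binds microtubules and the checkpoint protein Bub3, Zfp91 is a ubiquitin ligase, and Zfp516 activates thermogenic genes in mouse brown fat.

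The members shared several properties that the rule did not use. Of the 214 with an annotated coding sequence, 99 had under 10 C2H2 patterns, 8 of them none, and the median was 10 with a maximum of 36. A conserved KRAB pattern was found in 83 of these 214 members and in 201 of 21875 coding genes. The pattern is strict, and it was not found in Zfp445 and Zfp932, which are counted below among KRAB repressors. The members without the pattern therefore include KRAB genes. The members lay on 20 chromosomes, 52 of them on chromosome 7, 27 on chromosome 17, 19 on chromosome 8 and 14 on chromosome 5, and 91 lay within 100 kb of another member. Sequence shared with any other gene was counted apart from position. In all, 27 members shared over 5% of their 50-base stretches with other genes, up to 100% in Zfp935, which lay 1666 kb from the nearest other member. The counts of uniquely mapped reads of these 27 members are uncertain.

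The promoters of 4 members with some of the largest changes are shown here, taken from RefSeq with coordinates on GRCm38.p6, the assembly behind mm10. Each run is 300 bases around the annotated start, 5′ to 3′, with CCAAT or its reverse complement ATTGG in capitals.
Zfp869, chr8:69716853-69717152 (minus strand): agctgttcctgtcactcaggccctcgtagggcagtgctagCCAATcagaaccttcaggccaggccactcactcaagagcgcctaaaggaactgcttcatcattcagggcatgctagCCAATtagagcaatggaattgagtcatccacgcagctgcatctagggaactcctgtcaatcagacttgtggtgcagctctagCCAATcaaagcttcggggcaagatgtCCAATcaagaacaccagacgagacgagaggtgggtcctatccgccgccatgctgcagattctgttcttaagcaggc
Zfp324, chr7:12965588-12965887 (plus strand): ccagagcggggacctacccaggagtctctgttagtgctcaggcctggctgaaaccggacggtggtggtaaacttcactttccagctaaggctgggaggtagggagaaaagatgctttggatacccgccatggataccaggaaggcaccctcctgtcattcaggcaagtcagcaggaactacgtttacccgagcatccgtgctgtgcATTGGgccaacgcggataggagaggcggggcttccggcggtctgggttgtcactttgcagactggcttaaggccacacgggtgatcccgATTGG
Zfp282, chr6:47877305-47877604 (plus strand): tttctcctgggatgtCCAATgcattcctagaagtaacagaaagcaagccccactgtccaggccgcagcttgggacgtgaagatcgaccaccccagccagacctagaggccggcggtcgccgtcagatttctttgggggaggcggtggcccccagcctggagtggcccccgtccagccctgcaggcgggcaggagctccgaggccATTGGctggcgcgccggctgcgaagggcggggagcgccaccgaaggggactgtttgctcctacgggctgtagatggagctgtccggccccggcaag
Zfp185, chrX:72987089-72987388 (plus strand): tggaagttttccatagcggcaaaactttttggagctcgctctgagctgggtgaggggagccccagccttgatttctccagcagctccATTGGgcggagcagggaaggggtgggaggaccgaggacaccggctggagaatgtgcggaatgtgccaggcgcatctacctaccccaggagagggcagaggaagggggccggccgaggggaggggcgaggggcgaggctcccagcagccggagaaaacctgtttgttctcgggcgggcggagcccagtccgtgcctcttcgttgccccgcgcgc

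The 300 bases shown for Zfp869 hold 4 CCAAT letters in the same direction, while those for Zfp324 and Zfp282 hold 2 and those for Zfp185 hold 1, counting both strands. Among promoters not shown, those given for Zfp945, Zfp598 and Zfp36 hold CCAAT on neither strand. Of the promoters given for Zfp131, 1 holds CCAAT and another does not. A promoter was given for 176 of the 215 members, and CCAAT was found in 88 of them (50%), against 41.1% of 27025 genes. Among members that rose with thapsigargin at 6 or 24 h it was found in 13 of 35 promoters (37.1%), and among those that fell in 6 of 11 (54.5%). The C/EBP-ATF composite element TGATGNAA was found in 2 member promoters (1.14%), against 4.51% of all, and in 0 of the 35 and 0 of the 11. TGACGTGG, the core of the unfolded protein response element, was found in 3 member promoters (1.70%), 1 of them (2.86%) among the 35 and 0 among the 11, against 0.714% of all. The cyclic AMP response element TGACGTCA was found in 6 member promoters (3.41%), 0 of the 35 and 0 of the 11, against 2.03% of all, and the ER stress response element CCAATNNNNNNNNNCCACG, which begins with the CCAAT letters, in 0 of 176 against 0.137%. All motifs were searched on both strands, and a match describes letters, not a site.

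Total gene counts ran between 9150443 and 47616080 per library. The share of reads in intergenic regions had a median of 7.55% and ran from 6.17% to 36.6%, with 6 libraries above 25%: SW016789 1 h replicate 1, SW016789 6 h replicate 1, Thapsigargin 1 h replicate 2, Thapsigargin 2 h replicates 1 and 3, and Thapsigargin 6 h replicate 2. All 16 β cell markers were at 1 CPM or more in every group. Their summed level was 20543.8 to 23222.2 CPM with thapsigargin at 6 h, against 33094.5 to 36748.4 CPM with DMSO, and 20122.7 to 21023.8 CPM at 24 h, against 35626.6 to 43066.9 CPM. Markers of stroma, endothelium and immune cells reached 1 CPM for 13 of 18 genes with thapsigargin at 6 h (summed level 17.8 to 93.3 CPM), against 3 of 18 with DMSO (13.0 to 16.3 CPM, with 1 marker at 0). Of 17 acinar and ductal markers, 10 were at 1 CPM or more with thapsigargin at 6 h (96.6 to 127 CPM), against 4 with DMSO (108.95 to 129 CPM, with 5 markers at 0). Thapsigargin at 6 h was not alone in this. The stromal, endothelial and immune markers at 1 CPM or more numbered 14 with SW016789 at 1 h (up to 139 CPM summed) and 14 with thapsigargin at 1 h. They numbered 15 with thapsigargin at 2 h and 5 at 24 h, against 5 with DMSO at 1 h and 5 at 2 h. The part of these differences in the results was not tested.

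Vehicle alone moved no member past the threshold, an adjusted p below 0.05 in edgeR's quasi-likelihood test, adjusted by Benjamini-Hochberg across all 21752 tested genes. The counts of members called with DMSO against Baseline were 0 at 1 h, where 0.0% of all genes were called, 0 at 2 h (0.00919% of all genes), 0 at 6 h (0.0%) and 0 at 24 h (0.0%). At an unadjusted p under 0.05 there were 4, 27, 3 and 5 members at 1, 2, 6 and 24 h, and DESeq2 called 0, 1, 0 and 0. The DMSO 2 h libraries had 6.50% to 17% intergenic reads, against 6.61% to 11.1% in Baseline, and the part of this in the 27 members at 2 h was not tested.

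**Figure D1:**
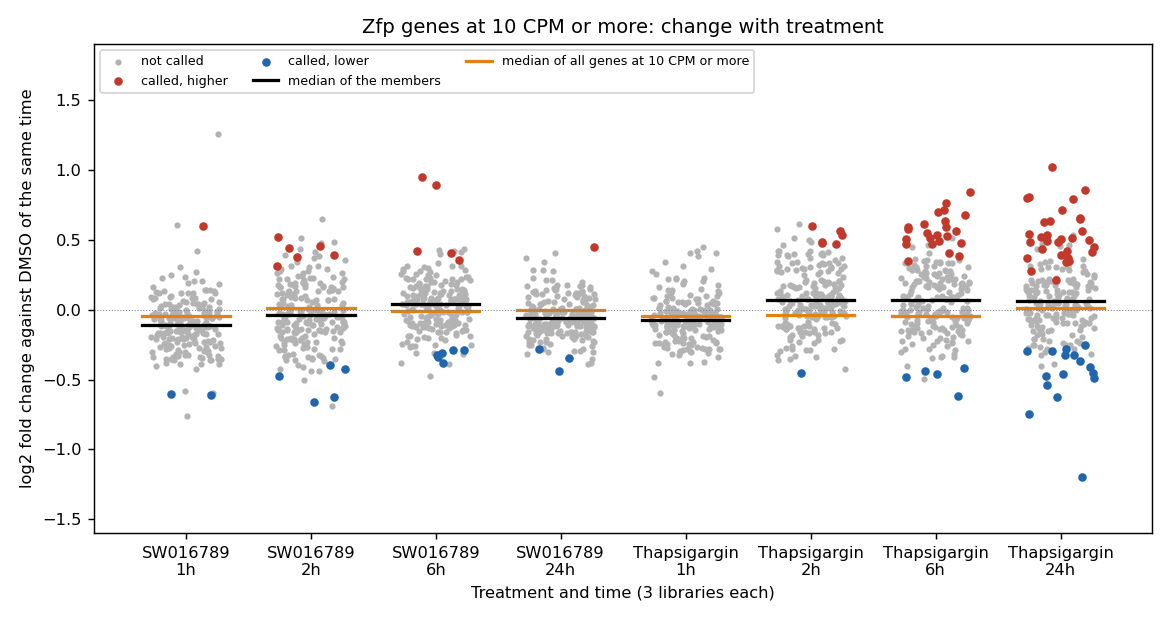
Log2 fold change of each of the 215 Zfp genes (points) with SW016789 or thapsigargin against DMSO of the same time, 3 libraries a group. Red and blue points passed an adjusted p below 0.05, black lines are medians of the members and orange lines medians of all 9820 genes at 10 CPM or more. The most members were called with thapsigargin at 24 h (31 higher, 16 lower), and the called changes of over 1 on the log2 scale were those of Zfp869 and Zfp185 at that time.

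Across the 8 comparisons with DMSO, 76 of the 215 members were called at least once and 139 in none. SW016789 changed 25 members at 1 or more times and thapsigargin 62. Changes were small, and called members that moved by over 1 on the log2 scale numbered 2. These counts over several comparisons were made for the members only, so whether they are usual for expressed genes was not tested. The shares of all genes stand beside the single comparisons below. The values per library below are CPM scaled by TMM (trimmed mean of M-values, the scaling also used in the test), and the log2 fold changes are from the fitted model, with their standard errors.

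SW016789 for 1 h against DMSO for 1 h changed few Zfp genes. At this time 1 member rose and 2 fell, 0.465% and 0.930% of the 215, where 0.336% of all genes tested rose and 0.0368% fell (0.652% and 0.0815% of the 9820 genes at 10 CPM or more). Zfp703, a transcriptional corepressor and in humans an oncogene of luminal breast cancer, had 30.3, 28.4 and 27.8 CPM with SW016789, against 18.8, 17.8 and 20.4 CPM with DMSO, and rose by 0.60 ± 0.14 on the log2 scale (adjusted p = 0.037). All 3 SW016789 libraries lay above all 3 DMSO libraries. Zfp790 (−0.61 ± 0.13, adjusted p = 0.015) and Zfp599 (−0.61 ± 0.14, adjusted p = 0.042) were lower. Zfp790 had 13.0, 17.3 and 22.7 CPM with SW016789, against 29.9, 24.5 and 27.8 CPM with DMSO, and its lowest library, SW016789 1 h replicate 1, had the highest intergenic share of the series (36.6%). The 83 members with the KRAB pattern had a median of −0.17, against −0.07 for the 131 without it. None of the 3 calls held in every fit that left out 1 of the 6 libraries, in which 0 to 2 members were called; Zfp703 and Zfp599 were lost in all 6 such fits and Zfp790 in 4. The median over all members was −0.11, against −0.05 over genes at 10 CPM or more and 0.12 over all genes tested.

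Zfp36 encodes tristetraprolin, which binds AU-rich elements in mRNA and recruits the CCR4-NOT deadenylase, and in many cells it is an immediate-early gene. It had 52.6, 32.4 and 23 CPM with SW016789 at 1 h, against 19.9, 12.8 and 12.1 CPM with DMSO at 1 h. The groups did not overlap, but the spread within them was wide, and the difference of 1.26 ± 0.32 on the log2 scale had an unadjusted p of 0.00044 and an adjusted p of 0.097, short of the threshold. With the experiment number as a block the adjusted p was 0.036. With thapsigargin at 1 h it had 20.5, 16.3 and 21.2 CPM (0.38 against DMSO, adjusted p = 0.58). From 2 h on it lay between 11.3 and 20.7 CPM in SW016789 libraries and between 9.14 and 18.5 CPM in thapsigargin libraries. DMSO 2 h replicate 2 stood apart with 2.46 CPM, where the other 2 DMSO 2 h libraries had 16.9 and 15.6 CPM. Over the 13 group means of log2 CPM, the members with the pattern most like that of Zfp36 were Zfp653 (Pearson r = 0.74), Zfp189 (0.68), Zfp703 (0.66), Zfp169 (0.62) and Zfp236 (0.61), a description over group means that share libraries and depth.

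After 2 h of SW016789, 6 members rose and 5 fell, against 1.9% and 0.68% of all genes tested, that is 2.79% and 2.33% of the members. Over genes at 10 CPM or more 3.86% rose and 1.36% fell, so 5.22% were called, against 5.12% of the members. The increases were Zfp142 (0.52 ± 0.13), Zfp628 (0.45 ± 0.12), Zfp281 (0.44 ± 0.12), Zfp9 (0.39 ± 0.11), Zfp324 (0.38 ± 0.10) and Zfp516 (0.31 ± 0.09). Zfp281, which binds GC-rich promoters in mouse embryonic stem cells, had 44.9, 41.9 and 44.7 CPM with SW016789, against 37.9, 23.4 and 35.7 CPM with DMSO, and DMSO 2 h replicate 2 was the low library. Zfp60 (−0.48 ± 0.10, adjusted p = 0.0019), Zfp90, Zfp229, Zfp113 and Zfp606 fell, and 4 of the 6 KRAB-pattern members called at this time were among the 5 lower. None of these calls held in every fit that left out 1 library. Without DMSO 2 h replicate 3 the count was 0, without DMSO 2 h replicate 1 it was 24 (11 higher, 13 lower), and without each of the other 4 libraries it was 1 or 2.

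At 6 h SW016789 gave its 2 firmest changes among the Zfp genes, in Zfp9 and Zfp324. Zfp9 (chr6:118461950-118479273), with 12 C2H2 patterns and a KRAB pattern, had 99.2, 99.4 and 98.3 CPM with SW016789, against 50.0, 53.0 and 50.6 CPM with DMSO. It rose by 0.95 ± 0.11 on the log2 scale (adjusted p = 4.4e-08). Zfp324 (chr7:12965864-12973822), with 9 C2H2 patterns and a KRAB pattern, had 54.6, 53.4 and 50.7 CPM with SW016789, against 31.4, 27.5 and 26.8 CPM with DMSO, and rose by 0.89 ± 0.10 (adjusted p = 2.1e-08). In both genes the 3 SW016789 libraries agreed within a few CPM and lay far above the DMSO libraries, although SW016789 6 h replicate 1 had 26.5% intergenic reads. These were the 2 calls that held in each of the 6 fits that left out 1 library, with log2 fold changes of 0.90 to 0.97 for Zfp9 and 0.82 to 0.96 for Zfp324.

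In all, 5 members rose and 6 fell with SW016789 at 6 h, 2.33% and 2.79% of the members, against 4.19% and 2.85% of all genes tested and 8.48% and 6.27% of genes at 10 CPM or more. Zfp106, an RNA-binding protein needed by motor neurons in mice, had 401, 413 and 390 CPM with SW016789, against 291, 299 and 320 CPM with DMSO, and rose by 0.40 ± 0.08 (adjusted p = 0.0012). Its groups did not overlap, and the call was lost without DMSO 6 h replicate 1, SW016789 6 h replicate 2 or SW016789 6 h replicate 3 (0.33 to 0.38). Zfp526 (0.42 ± 0.12) and Zfp260 (0.36 ± 0.09) were the other increases. Zfp462, a chromatin protein of many zinc fingers that binds HP1 and limits lineage genes in mouse embryonic stem cells, had 206, 202 and 176 CPM with SW016789, against 249, 235 and 255 CPM with DMSO, and fell by 0.34 ± 0.08 on the log2 scale (adjusted p = 0.0049). Zfp638, a nuclear nucleic-acid-binding protein, had 184, 174 and 173 CPM, against 225, 211 and 212 CPM, and fell by 0.29 ± 0.08 (adjusted p = 0.028). Zfp362, Zfp827, Zfp866 and Zfp608 made up the rest of the decreases, between −0.39 and −0.29, and Zfp866 shares 12.0% of its stretches with other genes. Without 1 library the count ran from 2 (without DMSO 6 h replicate 1) to 7 (without SW016789 6 h replicate 1).

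At 24 h of SW016789, 1 member rose and 3 fell, against 1.95% and 1.06% of all genes tested and 4.10% and 2.34% of genes at 10 CPM or more. Zfp9 was the increase, with 77.1, 69.0 and 72.0 CPM with SW016789, against 56.2, 51.8 and 51.8 CPM with DMSO (0.45 ± 0.11, adjusted p = 0.012). Zfp324 was back among its controls, with 34.9, 32 and 30.4 CPM with SW016789 and 33.7, 31.9 and 29.6 CPM with DMSO, a difference of 0.03. Zfp568, a KRAB repressor of a placental Igf2 transcript in mouse embryos, had 61.1, 55.1 and 58.2 CPM with SW016789, against 80.3, 80.8 and 74.8 CPM with DMSO, and fell by 0.44 ± 0.10 (adjusted p = 0.0085). Zfp462 (−0.35 ± 0.08, adjusted p = 0.0089) and Zfp644 (−0.29 ± 0.08, adjusted p = 0.043), a partner of the H3K9 methyltransferases G9a and GLP, also fell. Each of the 4 calls was lost in at least 1 fit without 1 library: Zfp568 without SW016789 24 h replicate 2, Zfp462 without SW016789 24 h replicate 1 or DMSO 24 h replicate 3, Zfp9 in 5 of 6 fits and Zfp644 in all 6.

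**Figure D2:**
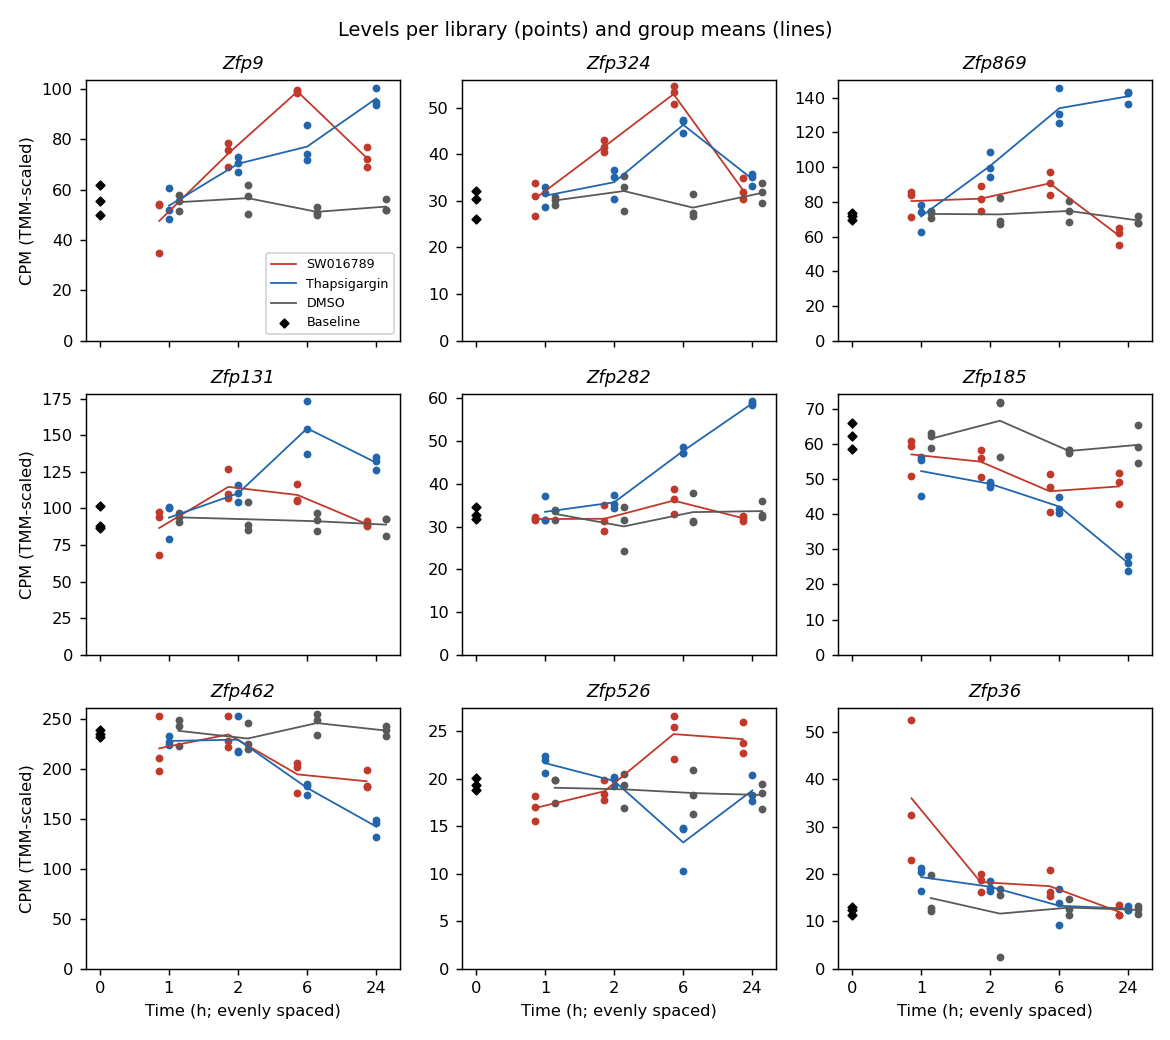
TMM-scaled CPM of 9 Zfp genes in every library (points) and group means (lines) by time, with SW016789 in red, thapsigargin in blue, DMSO in grey and Baseline as black diamonds. Zfp9 and Zfp324 peak at 6 h of SW016789, Zfp869, Zfp282 and Zfp131 stand highest with thapsigargin at 6 or 24 h, Zfp185 and Zfp462 are lowest with thapsigargin at 24 h, and Zfp36 is highest and most scattered at 1 h of SW016789.

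Thapsigargin for 1 h changed 0 members, against 0.046% of all genes tested in either direction. At an unadjusted p under 0.05 there were 22 members, and DESeq2 called 1. The 3 thapsigargin libraries at 1 h had 13.5% to 33.2% intergenic reads, against 6.48% to 14.7% with DMSO.

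At 2 h 6 members rose with thapsigargin and 1 fell, 2.79% and 0.465% of the 215, against 0.952% and 0.432% of all genes tested and 1.83% and 0.957% of genes at 10 CPM or more. With the experiment number as a block, 12 members were called in place of 7, 11 of them higher. Zfp941 had 90.01, 84.5 and 80.0 CPM with thapsigargin, against 59.5, 49.6 and 58.8 CPM with DMSO, and rose by 0.60 ± 0.10 (adjusted p = 0.00023). Zfp703 (0.56 ± 0.14), Zfp64 (0.54 ± 0.14), Zfp563 (0.48 ± 0.13), Zfp35 (0.48 ± 0.11) and Zfp869 (0.47 ± 0.09) rose with it. Zfp185 was the decrease, with 48.7, 49.3 and 47.8 CPM, against 56.4, 71.9 and 71.6 CPM (−0.45 ± 0.10, adjusted p = 0.014). No call at 2 h held without every library in turn. The count was 0 without DMSO 2 h replicate 3, Thapsigargin 2 h replicate 1 or Thapsigargin 2 h replicate 3, 2 without DMSO 2 h replicate 2, 4 without Thapsigargin 2 h replicate 2, and 30 (23 higher, 7 lower) without DMSO 2 h replicate 1. The thapsigargin libraries had 21% to 30.9% intergenic reads, against 6.50% to 17% with DMSO, and the part of this in the result was not tested.

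With thapsigargin at 6 h, 23 members rose and 5 fell, 10.7% and 2.33% of the 215. Over all genes tested 8.06% rose and 8.73% fell, and over the 9820 genes at 10 CPM or more 11.4% rose and 19% fell. With the experiment number as a block, 43 members were called in place of 28, 36 of them higher. The median of the members was 0.07, against −0.05 over genes at 10 CPM or more and 0.30 over all genes tested. The summed level of the members was 11078 to 11975 CPM with thapsigargin, against 10104 to 10415 CPM with DMSO. This split of directions rested on Thapsigargin 6 h replicate 1. Without that library 6 members rose and 21 fell, the median of the members was −0.13 and that of genes at 10 CPM or more −0.21, whereas the 5 fits that left out another library gave 10 to 18 increases and 4 to 7 decreases. The intergenic shares were 8.23% in Thapsigargin 6 h replicate 1, 34% in replicate 2 and 20.2% in replicate 3, against 6.80% to 7.55% in the DMSO 6 h libraries. The difference between the 2 medians moved less, from 0.12 with all libraries to between 0.08 and 0.14.

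**Figure D3:**
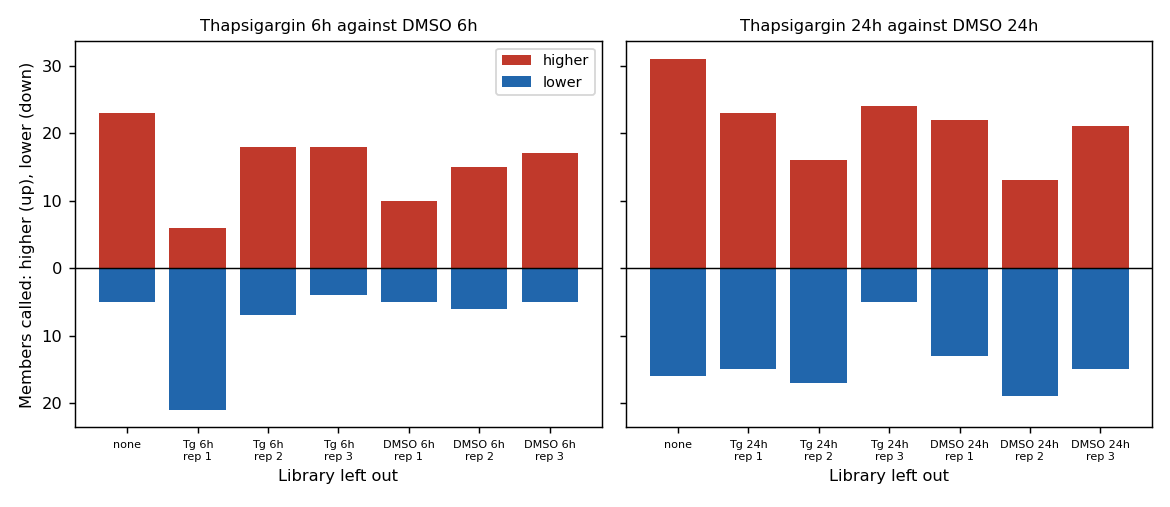
Number of Zfp genes called with thapsigargin against DMSO at 6 h (left) and 24 h (right), higher upward and lower downward, with all 6 libraries and with each left out in turn. At 6 h leaving out Thapsigargin replicate 1 gives 6 higher and 21 lower in place of 23 and 5, and at 24 h leaving out DMSO replicate 2 gives 13 higher and 19 lower in place of 31 and 16.

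The 8 members whose call at 6 h held without any 1 library were Zfp869, Zfp131, Zfp324 and Zfp703, all higher, and Zfp704, Zfp185, Zfp462 and Zfp738, all lower. Zfp869 (chr8:69705137-69716902, 12 C2H2 patterns) had 146, 131 and 125.3 CPM with thapsigargin, against 80.8, 74.9 and 68.6 CPM with DMSO, and rose by 0.84 ± 0.09 on the log2 scale (adjusted p = 1.2e-08). Of its 50-base stretches 9.34% occur in other genes, so a part of its reads could be missing from the count. Zfp131 (chr13:119765186-119791122), a BTB-domain zinc finger protein, had 173, 137 and 154 CPM, against 97.1, 84.9 and 91.8 CPM (0.76 ± 0.11, adjusted p = 1.5e-06). Zfp324 had 47.1, 44.6 and 47.3 CPM, against 31.4, 27.5 and 26.8 CPM (0.70 ± 0.10, adjusted p = 1.7e-06). In each of these 3 genes all thapsigargin libraries lay well above all DMSO libraries, and the values without 1 library ran from 0.65 to 0.87, 0.55 to 0.81 and 0.56 to 0.72. Zfp703 had 22.9, 26.6 and 27.7 CPM, against 16.3, 15.6 and 18.4 CPM (0.62 ± 0.14, adjusted p = 0.0013).

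Among the decreases at 6 h, Zfp704, a transcription factor first described as a glucocorticoid-induced gene, had 156, 146 and 131 CPM with thapsigargin, against 217, 218 and 229 CPM with DMSO, and fell by 0.62 ± 0.11 (adjusted p = 6.6e-05). Zfp185 (chrX:72987339-73031543), which encodes the LIM domain protein of the actin cytoskeleton and has no C2H2 pattern, had 44.9, 40.2 and 41.4 CPM, against 58.3, 57.5 and 58.1 CPM (−0.46 ± 0.10, adjusted p = 0.0012). Zfp462 (chr4:54947945-55083563, 33 C2H2 patterns) had 186, 175 and 184 CPM, against 249, 235 and 255 CPM (−0.44 ± 0.08, adjusted p = 0.00011). None of these groups overlapped. Zfp738 (−0.41 ± 0.11) shares 9.12% of its stretches with other genes. Zfp526 had 14.7, 14.9 and 10.3 CPM, against 16.3, 18.3 and 20.9 CPM, and fell by 0.48 ± 0.12 (adjusted p = 0.0046), a call lost without Thapsigargin 6 h replicate 3 (−0.35). Of the larger increases, Zfp850 (0.71 ± 0.15) was lost without DMSO 6 h replicate 1 (0.54), Zfp598 (0.63 ± 0.13) without Thapsigargin 6 h replicate 1 (0.40), and Zfp202 (0.68 ± 0.18) without Thapsigargin 6 h replicate 1 or 2 or DMSO 6 h replicate 2 (as low as 0.50).

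With thapsigargin at 24 h, 31 members rose and 16 fell, 14.4% and 7.44% of the 215, the most of any comparison with DMSO. Over all genes tested 10.1% rose and 10.7% fell, and over genes at 10 CPM or more 19.3% rose and 21.8% fell. The median of the members was 0.06, against 0.01 over genes at 10 CPM or more and 0.07 over all genes tested. The split of directions moved with the library set here too, with 13 increases and 19 decreases without DMSO 24 h replicate 2, 16 and 17 without Thapsigargin 24 h replicate 2, and 24 and 5 without Thapsigargin 24 h replicate 3. With DESeq2's size factors in place of TMM, 31 rose and 23 fell, so the share of increases among calls was 57.4% in place of 66.0%. The intergenic shares were close in these libraries, at 6.48% to 8.86% with thapsigargin, against 6.55% to 7.15% with DMSO.

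At 24 h 16 calls held without any 1 library, 11 of them higher and 5 lower. Zfp869 had 136, 143 and 143 CPM with thapsigargin, against 72.0, 67.8 and 68.0 CPM with DMSO, and rose by 1.02 ± 0.09 on the log2 scale (adjusted p = 3.8e-11). Zfp9 had 94.8, 100 and 93.5 CPM, against 56.2, 51.8 and 51.8 CPM (0.85 ± 0.11, adjusted p = 7.8e-08). Zfp282 (chr6:47877555-47908484), whose human counterpart represses a retroviral promoter, had 59.3, 58.9 and 58.4 CPM, against 32.2, 32.6 and 36 CPM (0.81 ± 0.10, adjusted p = 3.5e-08). In each of the 3 genes the thapsigargin libraries lay far above the DMSO libraries, with little spread within either group. Zfp330, a nucleolar protein, had 33, 47.4 and 37.5 CPM, against 21, 21 and 25.7 CPM (0.80 ± 0.14, adjusted p = 3.7e-05). Zfp945 had 37.5, 32.5 and 30.1 CPM, against 22.1, 15.7 and 20.2 CPM (0.79 ± 0.17, adjusted p = 0.00063), and Zfp180 had 52.5, 64.5 and 61.2 CPM, against 35.4, 38.5 and 34.5 CPM (0.72 ± 0.13, adjusted p = 2.7e-05). Zfp131, Zfp142 (0.48 ± 0.12), Zfp598, Zfp623 (0.63 ± 0.15) and Zfp777 (0.48 ± 0.11) were the other increases that held. Zfp330 shares 5.29% of its stretches with other genes.

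The largest decrease of any member at any time was that of Zfp185, which had 23.8, 28.2 and 26 CPM with thapsigargin at 24 h, against 59.2, 54.5 and 65.4 CPM with DMSO. It fell by 1.20 ± 0.10 on the log2 scale (adjusted p = 9.6e-12), and by 1.15 to 1.30 without 1 library. Zfp462 had 150, 146 and 132 CPM, against 233, 240 and 244 CPM (−0.74 ± 0.08, adjusted p = 2.9e-09). Both groups of libraries were far apart in both genes. Zfp395, whose human counterpart binds the huntingtin gene promoter, had 24.1, 26 and 22.1 CPM, against 39.4, 35.4 and 36.4 CPM (−0.62 ± 0.12, adjusted p = 5.4e-05). Zfp41 had 17.7, 16.5 and 17.6 CPM, against 23.5, 26.9 and 24.8 CPM (−0.54 ± 0.11, adjusted p = 0.00021). Zfp799 (−0.45 ± 0.11) was the other decrease that held. Zfp516 had 241, 253 and 237 CPM, against 313, 337 and 356 CPM (−0.46 ± 0.09), Zfp704 fell by 0.49 ± 0.11 and Zfp667 by 0.47 ± 0.13, and all 3 calls were lost without Thapsigargin 24 h replicate 3.

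**Figure D4:**
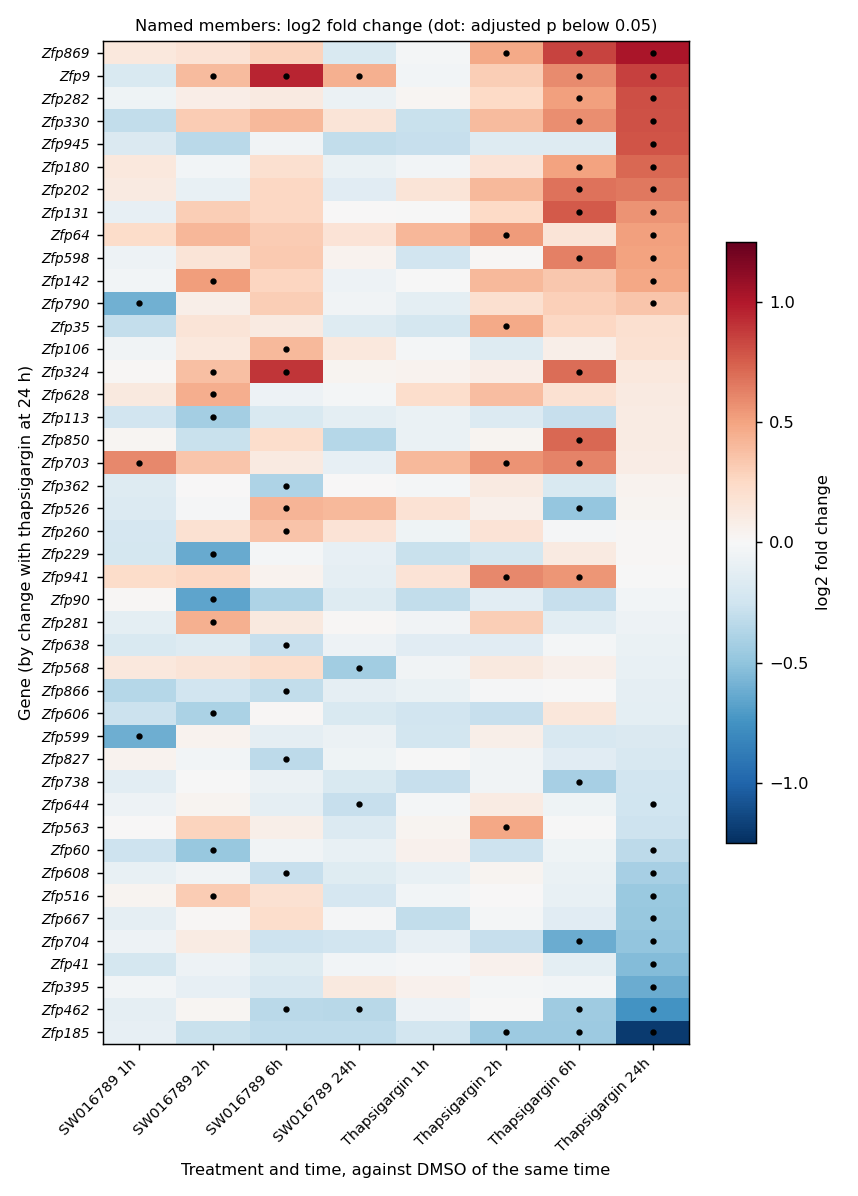
Log2 fold change against DMSO of the same time (red higher, blue lower) for the Zfp genes with the largest called changes, ordered by their change with thapsigargin at 24 h, where a dot marks an adjusted p below 0.05. Zfp869 at the top (1.02) and Zfp185 at the bottom (−1.20) frame the 24 h thapsigargin column, and dots are sparse in the 1 h columns and in the 24 h SW016789 column.

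Calls at 6 and 24 h of thapsigargin went the same way wherever a member was called at both. In all, 12 members rose at both times, 52.2% of the increases at 6 h and 38.7% of those at 24 h: Zfp9, Zfp131, Zfp180, Zfp202, Zfp282, Zfp330, Zfp598, Zfp605, Zfp623, Zfp639, Zfp655 and Zfp869. Zfp185, Zfp462 and Zfp704 fell at both, and 0 members rose at 1 time and fell at the other. Each time had its own DMSO libraries. Of these calls, those of Zfp131, Zfp869, Zfp185 and Zfp462 held at both times without any 1 library. At 6 h Zfp605 was lost in 6 of 6 such fits, and Zfp623 and Zfp655 in 5. Without Thapsigargin 6 h replicate 1, 6 members rose and 21 fell at 6 h. The same overlap was not counted over all genes, so it cannot be called particular to the members. Zfp282 had 47.3, 47.3 and 48.6 CPM with thapsigargin at 6 h, against 31, 37.9 and 31.2 CPM with DMSO (0.51).

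The change of the thapsigargin effect between 6 and 24 h was tested as an interaction, and 1 member rose and 6 fell, against 6.28% of all genes tested in either direction. Zfp945 was the increase (0.95 ± 0.25, adjusted p = 0.013), with 21.5, 17.4 and 13.7 CPM with thapsigargin at 6 h, against 18.9, 19.3 and 20.8 CPM with DMSO. Zfp185 moved further down (−0.74 ± 0.14), as did Zfp395 (−0.59 ± 0.16), which at 6 h had 37.1, 30.7 and 39 CPM with thapsigargin, against 34.3, 36.4 and 38.6 CPM. Zfp324 (−0.57 ± 0.14) and Zfp941 (−0.56 ± 0.14) were raised at 6 h and close to DMSO at 24 h. The 6 h call of Zfp941 (0.55) was lost without Thapsigargin 6 h replicate 1 (0.35), whereas that of Zfp324 held. The test of a changed effect was not refitted without 1 library. Zfp324 had 35.7, 35.1 and 33.2 CPM with thapsigargin at 24 h, against 33.7, 31.9 and 29.6 CPM with DMSO. Zfp941 had 65.6, 58.4 and 58.1 CPM at 24 h, against 64.3, 55.7 and 63.1 CPM. For SW016789 the same test found 2 members (4 with the experiment number as a block), against 1.45% of all genes, Zfp324 (−0.86 ± 0.14, adjusted p = 0.00018) and Zfp568 (−0.65 ± 0.14, adjusted p = 0.0081). Zfp568 had 92.4, 84.2 and 70.1 CPM with SW016789 at 6 h, against 68.7, 70.6 and 72.8 CPM with DMSO.

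SW016789 and thapsigargin were set against each other at matched times, 1 dose of each. No member differed at 1 h, where 0.11% of all genes did, or at 2 h, where 0.667% did, with 19 and 41 members at an unadjusted p under 0.05 and 1 and 11 called by DESeq2. With the experiment number as a block, 3 members were called at 2 h. At 6 h 10 members were higher with SW016789 and 21 lower, 4.65% and 9.77% of the members, against 7.54% and 4.01% of all genes tested and 16.5% and 8.05% of genes at 10 CPM or more. Without Thapsigargin 6 h replicate 1 there were 21 higher and 0 lower. The 1 call that held without any 1 library was Zfp526, with 22, 26.6 and 25.4 CPM with SW016789 and 14.7, 14.9 and 10.3 CPM with thapsigargin, a difference of 0.90 ± 0.12 on the log2 scale (adjusted p = 1.6e-06). The DMSO 6 h libraries lay between them at 16.3, 18.3 and 20.9 CPM. Zfp869 had 83.8, 97.3 and 90.8 CPM with SW016789 and 146, 131 and 125.3 CPM with thapsigargin (−0.56 ± 0.09), a call lost without Thapsigargin 6 h replicate 1 (−0.35).

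At 24 h 10 members were higher with SW016789 than with thapsigargin and 42 were lower, 4.65% and 19.5% of the members, against 9.78% and 8.26% of all genes tested and 19.9% and 16.4% of genes at 10 CPM or more. The median of the members was −0.11, against 0.00 over genes at 10 CPM or more, and every fit without 1 library kept more lower than higher calls, with 16 to 33 lower and 3 to 9 higher. Zfp869 had 65.0, 55.1 and 61.8 CPM with SW016789 and 136, 143 and 143 CPM with thapsigargin (−1.21 ± 0.09, adjusted p = 1.1e-12). Zfp945 had 16.5, 16.8 and 13.7 CPM with SW016789 and 37.5, 32.5 and 30.1 CPM with thapsigargin (−1.09 ± 0.18, adjusted p = 9.1e-06), and Zfp282 had 32.5, 31.4 and 32.1 CPM and 59.3, 58.9 and 58.4 CPM (−0.88 ± 0.10, adjusted p = 9.3e-09). In these 3 genes the SW016789 libraries lay near or below the DMSO libraries. Zfp185 went the other way, with 42.8, 49.1 and 51.8 CPM with SW016789 and 23.8, 28.2 and 26 CPM with thapsigargin (0.88 ± 0.10, adjusted p = 2.0e-08), as did Zfp395 (0.74 ± 0.12) and Zfp41 (0.51 ± 0.11). Of the 52 calls 16 held without any 1 library, and the count was lowest, 19, without Thapsigargin 24 h replicate 3. Zfp9 was higher with SW016789 than with thapsigargin at 6 h (0.36, adjusted p = 0.024), a call lost in 4 of 6 fits without 1 library, and lower at 24 h (−0.40, adjusted p = 0.0052), a call lost without Thapsigargin 24 h replicate 2 or 3 (−0.45 to −0.36).

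Grouped by what their products do, the members whose roles are known moved in small numbers. Of 9 members that act on RNA or translation, 2 rose with thapsigargin at 6 h and 2 at 24 h, with 0 lower at either time, where 11.4% and 19.3% of genes at 10 CPM or more rose. Zfp598, a ubiquitin ligase that marks collided ribosomes, had 97.1, 73.2 and 82.9 CPM with thapsigargin at 6 h, against 57.0, 50.5 and 55.9 CPM with DMSO (adjusted p = 0.00043), and 72.7, 72.3 and 68.5 CPM at 24 h, against 54.9, 45.4 and 50.6 CPM (0.50 ± 0.13, adjusted p = 0.0033). Its 24 h call held in all 6 fits without 1 library. With SW016789 at 6 h its difference from DMSO was 0.33 (adjusted p = 0.13, or 0.028 with the experiment number as a block). Zfp346, which binds double-stranded RNA, had 42.9, 33.3 and 32.4 CPM at 6 h, against 21.7, 25.7 and 24.8 CPM (0.59 ± 0.11), a call lost without Thapsigargin 6 h replicate 1 (0.32). Zfp622, whose human counterpart acts in maturation of the large ribosomal subunit, had 29.7, 35.1 and 37.1 CPM at 24 h, against 25.4, 27.1 and 23.8 CPM (0.42 ± 0.15, adjusted p = 0.039), lost in 5 of 6 fits without 1 library. With SW016789 the list had 1 increase and 1 decrease at 6 h, Zfp106 and Zfp638, where 8.48% of genes at 10 CPM or more rose and 6.27% fell. The call of Zfp106 was lost in 3 of 6 fits without 1 library and that of Zfp638 in all 6. Zfp326, a subunit of a complex that couples transcript elongation to splicing, and Zfp207 were not called in any comparison with DMSO, and Zfp326 came closest with SW016789 at 6 h (−0.38, adjusted p = 0.074).

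Of 13 members listed as chromatin co-regulators, 3 rose and 4 fell with thapsigargin at 24 h, when 19.3% of genes at 10 CPM or more rose and 21.8% fell. Zfp131 had 126, 132 and 135 CPM, against 93, 80.9 and 92.8 CPM with DMSO (0.56 ± 0.11, adjusted p = 8.5e-05), and Zfp532 (0.65 ± 0.22) and Zfp276 (0.62 ± 0.22) rose with it. Zfp462, Zfp516, Zfp292 (−0.30 ± 0.10) and Zfp644 (−0.25 ± 0.08) fell. Of these 7 calls, those of Zfp131 and Zfp462 held without any 1 library, whereas Zfp532 and Zfp644 were lost in 5 of 6 such fits, Zfp276 and Zfp292 in 3 and Zfp516 in 1. Zfp592 and Zfp687, partners of ZMYND8 in humans, were not called in any comparison with DMSO, but with the experiment number as a block Zfp592 passed with thapsigargin at 6 h (0.28, adjusted p = 0.022) and Zfp687 at 24 h (−0.21, adjusted p = 0.042). Of 11 members listed as transcription factors, 1 rose at that time (Zfp740, 0.39 ± 0.11) and 3 fell (Zfp704, Zfp41 and Zfp148, −0.28 ± 0.09). The 11 include Zfp703 and Zfp503, which have no C2H2 pattern. Zfp740 and Zfp148 were each lost in 2 of 6 fits without 1 library. Zfp143, an activator that binds many promoters, and Zfp384 were not called against DMSO at any time, although with the experiment number as a block Zfp384 passed with thapsigargin at 24 h (0.31, adjusted p = 0.025). Zfp143 was higher with SW016789 than with thapsigargin at 6 h (0.39 ± 0.10, adjusted p = 0.0062), lost without SW016789 6 h replicate 2 or Thapsigargin 6 h replicate 3. Of the 3 ubiquitin and SUMO ligases, Zfp598 rose, Zfp91 had 212, 213 and 224 CPM with thapsigargin at 24 h, against 256, 279 and 260 CPM (−0.29 ± 0.07, adjusted p = 0.0019, lost without Thapsigargin 24 h replicate 3), and Zfp451 was not called. The highly expressed Zfp367 and Zfp706 were not called against DMSO at any time, and Zfp664 rose by 0.21 ± 0.07 with thapsigargin at 24 h, a call lost in every fit without 1 library. With the experiment number as a block it also passed at 6 h (0.19, adjusted p = 0.032).

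Members with and without a KRAB pattern both had more increases than decreases with thapsigargin when all libraries were used. With thapsigargin at 24 h, 9 of 83 rose and 4 fell, against 22 and 12 of the 131 without the pattern, and at 6 h 9 rose and 1 fell, against 14 and 4. Over genes at 10 CPM or more 19.3% rose and 21.8% fell at 24 h, and 11.4% rose and 19% fell at 6 h. Of 5 KRAB repressors of retroelements or imprinted genes, 1 fell with SW016789 at 24 h (Zfp568), where 1.06% of all genes tested fell. Of the same 5, 0 were called in any thapsigargin comparison with DMSO. Zfp445, which guards imprinted genes and is counted above among members without the pattern, stayed between −0.30 and 0.06 against DMSO with no call. Of the Zfp genes under 10 CPM, 3 rose and 0 fell with thapsigargin at 6 h and 3 rose and 1 fell at 24 h (2.46% higher at either time). Over all genes tested 8.06% and 10.1% rose and 8.73% and 10.7% fell, but most of these were at 10 CPM or more. Such genes made up 1120 of the 1753 increases and 1863 of the 1900 decreases at 6 h. At 24 h they made up 1899 of 2191 increases and 2142 of 2320 decreases. The share over all genes under 10 CPM was not counted, so these shares are not of like level. Of the 43 Zbtb, Zkscan and Zscan genes at 10 CPM or more, related zinc finger genes under other names, 9 rose and 2 fell with thapsigargin at 6 h (20.9% and 4.65%) and 11 rose and 4 fell at 24 h (25.6% and 9.30%), and 3 were higher and 13 lower with SW016789 than with thapsigargin at 24 h. No test of a difference between these groups of genes was made.

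A list of 25 genes held the KRAB corepressor and H3K9me3 silencing machinery at large, not all of it specific to KRAB proteins. Of these, 2 rose and 8 fell with thapsigargin at 24 h, with a median of −0.20, against 0.01 over genes at 10 CPM or more. The 10 calls were 40% of the list, and 41.2% of genes at 10 CPM or more were called. Cbx5, which encodes the H3K9me3 reader HP1α, had 458, 430 and 427 CPM with thapsigargin, against 737, 792 and 771 CPM with DMSO (−0.81 ± 0.10, adjusted p = 7.3e-08). The chromatin remodeller Chd3 (−0.72 ± 0.08), the H3K9 methyltransferase Ehmt2 (−0.44 ± 0.07) and the DNA methyltransferase Dnmt3a (−0.41 ± 0.08) fell as well, and the silencing ATPases Morc2a (0.57 ± 0.10) and Morc3 (0.47 ± 0.11) rose. Trim28 itself had 200, 209 and 218 CPM, against 196, 203 and 187 CPM (0.10 ± 0.09, adjusted p = 0.54), and Setdb1 was not called. No fits without 1 library were examined for the genes of this list. At 6 h 1 rose and 5 fell with thapsigargin (median −0.09), 24% of the list against 30.4% of genes at 10 CPM or more, and 0 rose and 5 fell with SW016789 (median −0.14), 20% of the list against 14.8%, with Dnmt3a and Hdac1 among the decreases with both. With SW016789 at 24 h 1 fell, Chd3, where 1.06% of all genes tested fell.

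Around Zfp36, 21 relatives and CCR4-NOT decay genes were tested. Zfp36l2, a paralog that also binds AU-rich elements, rose with SW016789 at 2 h (0.69 ± 0.14, adjusted p = 0.0015). It had 79.4, 76.7 and 68.4 CPM there, against 51.3, 32.1 and 55.9 CPM with DMSO, and DMSO 2 h replicate 2 was the low library. Fits without 1 library were not examined for this list. This call was 4.76% of the list, against 5.22% of genes at 10 CPM or more. With thapsigargin at 24 h Zfp36l2 had 115.4, 101.2 and 110.1 CPM, against 64.6, 58.3 and 53.8 CPM with DMSO (0.89 ± 0.14, adjusted p = 2.6e-06). The deadenylase gene Cnot6l had 285, 267 and 273 CPM with thapsigargin at 24 h, against 492, 466 and 478 CPM (−0.80 ± 0.08, adjusted p = 3.2e-10). The groups of neither gene overlapped. With thapsigargin 1 gene of the list rose and 3 fell at 6 h, and 2 rose and 3 fell at 24 h, with Cnot6, Cnot6l and the decapping enzyme gene Dcp2 lower at both times. These calls were 19% and 23.8% of the list, against 30.4% and 41.2% of genes at 10 CPM or more.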

How the data were processed

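Total RNA of MIN6 cells was sequenced in 39 libraries, 13 groups of 3, grouped by their labels. The authors deposited raw counts of uniquely mapped read pairs per gene, made per the submitters' notes with STAR 2.5.2b and featureCounts of Subread 1.5.1 on mm10 (the study's methods give later versions and another library kit). A table of mapped reads by region, also deposited as counts, gave each library's percent of intergenic reads. The 78 columns of log2 FPKM and TPM were left aside. Counting unique alignments loses reads from sequence shared between close paralogs.

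In R 4.3.3 with edgeR 4.0.16, filterByExpr kept 21752 genes, counts were scaled by TMM, and a quasi-likelihood model of 13 groups was fitted to all libraries without a block. Per the series' design each experiment held 13 samples, so equal experiment numbers pair libraries, although deviations of same-numbered libraries had a median correlation of 0.06, against −0.03 for other numbers. Each contrast had a two-sided test, p-values were adjusted by Benjamini-Hochberg across all tested genes, and an adjusted p below 0.05 was a call. Alternatives were DESeq2 1.42.0, its size factors, no filter, only the libraries compared, a replicate block with and without intergenic share, no libraries above 25% intergenic reads, other member limits, and each library left out. The fit was tested on simulated data. No 2 libraries of a group agreed within sampling noise (lowest ratio of chi-square to degrees of freedom 5.87).

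Named were the 6 largest increases and decreases among called members whose groups do not overlap, the 3 largest between treatments, and a set of members with known roles or the highest CPM per kilobase; a few others were named after their values were seen. The members and lists were chosen with earlier results of these data known. C2H2 and KRAB patterns came from GENCODE coding sequences and promoters from RefSeq.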

Additional observations from a re-analysis of the deposited data

Results flagged for a closer look

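A test of the change of an effect between 6 and 24 h passed for 9 effects, 2 of SW016789 and 7 of thapsigargin. This test was not refitted without 1 library. With SW016789 the effect on Zfp324 moved by −0.86 on the log2 scale and that on Zfp568 by −0.65. With thapsigargin the effect on Zfp945 moved by 0.95, that on Zfp185 by −0.74, on Zfp395 by −0.59, on Zfp949 by −0.58, on Zfp324 by −0.57, on Zfp941 by −0.56 and on Zfp788 by −0.45. Zfp324 is the gene that passed with both compounds, and in both it stood above DMSO at 6 h and among or near the DMSO libraries at 24 h. Both tests used the same DMSO libraries at 6 and 24 h, so they were not independent.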

How the results depend on the processing

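The number of members called moved with the setting. With DESeq2 it was 6, 24, 20 and 10 for SW016789 against DMSO at 1, 2, 6 and 24 h (3, 11, 11 and 4 with edgeR) and 1, 21 and 55 for thapsigargin at 1, 2 and 6 h (0, 7 and 28 with edgeR). DESeq2 also gave 1, 11 and 47 for SW016789 against thapsigargin at 1, 2 and 6 h, 6 and 20 for the change of the SW016789 and thapsigargin effects, and 1 for DMSO 2 h against Baseline. Its size factors within edgeR gave 2 for SW016789 against thapsigargin at 2 h and 4 for the change of the SW016789 effect.

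Fitting only the libraries compared gave 0, 0 and 17 for SW016789 at 1, 2 and 6 h, 0 and 77 for thapsigargin at 2 and 24 h, and 3 for SW016789 against thapsigargin at 6 h. Without the libraries above 25% intergenic reads the count was 0 for SW016789 at 1 h and 1 for thapsigargin at 2 h, where a single thapsigargin library was left and was assumed to vary like the other groups, and members at 20 CPM or more numbered 1 and 4 calls there.

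With a replicate block the count was 12 and 43 for thapsigargin at 2 and 6 h, 3 for SW016789 against thapsigargin at 2 h and 4 for the change of the SW016789 effect. Beside these, the block moved no count by over 1.5 times, took no call from a named gene and gave 6 named genes 1 call each. With a replicate block and intergenic share it was 21, 25 and 9 for SW016789 at 2, 6 and 24 h, 22 and 47 for thapsigargin at 2 and 6 h, 1 and 6 for SW016789 against thapsigargin at 1 and 2 h, and 6 and 15 for the change of the SW016789 and thapsigargin effects.

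Leaving out 1 library gave 0 to 2, 0 to 24, 2 to 7 and 1 to 2 calls for SW016789 at 1, 2, 6 and 24 h, 0 to 30, 15 to 27 and 29 to 38 for thapsigargin at 2, 6 and 24 h, and 5 to 24 and 19 to 40 for SW016789 against thapsigargin at 6 and 24 h. The fits left out 1 library each and assume that the remaining 2 vary like other groups. Of the values of named genes under these fits, 1224 kept their side of the threshold, 191 lost a call and 7 gained one. The 1224 include values that were not calls with all libraries. Of the member calls, 16 of 47 held in every fit for thapsigargin at 24 h and 8 of 28 at 6 h. For SW016789 at 6 h 2 of 11 held, and at 1, 2 and 24 h 0 did. The cause of these moves was not tested. Members near 10 CPM rest on few reads in the smallest library.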
